A study of Mus musculus with 4 samples.

Results

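Sox5, Sox6 and Sox9 encode the SRY-box transcription factors that together drive chondrocyte differentiation, and Matn1, Matn2, Matn3, Matn4, Cnmd, Comp and Panx3 encode extracellular matrix or membrane proteins that have been tied to cartilage. These 10 genes were taken by symbol from the 19465 genes that were measured, and all 10 were found. Their levels were described across 6357 tissue spots of mouse embryo heads. The rule that picks them is a list of symbols and uses no level.

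Spatial RNA-seq (Visium) was performed on formalin-fixed, paraffin-embedded coronal sections through the mid-palate of wild-type C57BL/6J mouse heads at embryonic day 14.5 (E14.5) and E15.5. Each stage had 2 capture areas, which are the libraries. One held the section of replicate 1, and the other held the sections of replicates 2, 3 and 4. The groups shared genotype and tissue and differed in stage alone according to the labels, which name no transgene or treatment.

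In cartilage, Sox9 switches on the chondrocyte programme and is required for it, and Sox5 and Sox6 act beside it to raise the transcription of matrix genes. Outside the skeleton, Sox9 is also known from neural progenitors and several epithelia, and Sox5 from neurons of the deep cortical layers. The matrilins are adaptor proteins that link collagen fibrils and aggrecan, chondromodulin (Cnmd) keeps cartilage free of vessels, cartilage oligomeric matrix protein (Comp) belongs to the thrombospondin family, and Panx3 is a channel protein of hypertrophic chondrocytes and osteoblasts.

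The depth of the libraries ran from 15438992 to 109127953 unique molecular identifiers (UMIs), and the median per spot from 6752 UMIs in the E14.5 replicate 1 area to 64051 in the E15.5 replicate 1 area. The sections of the shared areas could be separated on the slide but not tied to a replicate number, and were called sections A, B and C of their stage. E14.5 section A was shallow, with a median of 10037.5 UMIs per spot against 65616 and 59411 in sections B and C, and 10.8% of its spots passed the cartilage rule below, against 3.63% and 4.50%. Barcodes name array positions, and any pair of areas had between 540 and 1388 of them in common, which was not a sign of shared cells. Levels are given as CPM, the UMIs of a gene per 1000000 UMIs of the same spots. A spot holds several cells, so fewer cells of a type and less RNA per cell cannot be told apart, and CPM carries no correction for how well a gene is captured, so levels were compared between samples and spots of a gene and not between genes.

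The upstream sequence of the matrix genes was read because Matn1, Matn3 and Cnmd were the 3 genes with the largest differences between cartilage-list spots and other tissue, described below. RefSeq promoter windows on GRCm38.p6 were found for 6 of the 10 genes (Sox5, Sox6, Matn1, Matn3, Matn4 and Cnmd), in 12 windows, and the 250 bases before each start site were searched for AACAAT and ACAAAG, which resemble the core bound by the HMG box of SOX proteins, on both strands. AACAAT can overlap its own reverse complement. The search found no match in the windows of Matn1, Matn3, Matn4, Cnmd or Sox5, and 9 matches in 5 of the 6 Sox6 windows. The Sox5 window (chr6:143947107-143947356, minus strand) lies inside the gene, and no window at its annotated 5′ end (144781977) was searched. Of the Sox6 windows, only chr7:116038745-116038994, with 1 match, lies at the annotated 5′ end (116038796), and the others lie inside the gene. Among all 32817 windows of that length, 9.42% held AACAAT, 16.5% held ACAAAG and 24% held at least one of them. The windows of Matn1 (chr4:130944135-130944384, plus strand), Matn3 (chr12:8947679-8947928, plus strand), Cnmd (chr14:79662184-79662433, minus strand) and the Sox6 start with the most matches (chr7:115824711-115824960, minus strand) are shown 5′ to 3′, with matches in capitals.
Matn1: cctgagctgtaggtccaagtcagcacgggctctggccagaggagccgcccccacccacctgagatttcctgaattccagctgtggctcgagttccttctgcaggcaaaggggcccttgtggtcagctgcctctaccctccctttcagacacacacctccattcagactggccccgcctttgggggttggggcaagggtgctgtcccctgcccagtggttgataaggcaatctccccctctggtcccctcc
Matn3: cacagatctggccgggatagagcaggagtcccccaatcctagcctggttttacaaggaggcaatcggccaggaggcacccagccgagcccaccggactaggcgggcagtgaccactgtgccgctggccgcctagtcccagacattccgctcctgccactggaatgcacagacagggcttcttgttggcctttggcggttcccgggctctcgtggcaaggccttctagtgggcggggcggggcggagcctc
Cnmd: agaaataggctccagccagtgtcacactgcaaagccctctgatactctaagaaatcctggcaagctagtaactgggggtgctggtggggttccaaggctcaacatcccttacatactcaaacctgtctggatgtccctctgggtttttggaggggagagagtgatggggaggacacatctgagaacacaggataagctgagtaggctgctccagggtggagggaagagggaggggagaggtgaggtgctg
Sox6: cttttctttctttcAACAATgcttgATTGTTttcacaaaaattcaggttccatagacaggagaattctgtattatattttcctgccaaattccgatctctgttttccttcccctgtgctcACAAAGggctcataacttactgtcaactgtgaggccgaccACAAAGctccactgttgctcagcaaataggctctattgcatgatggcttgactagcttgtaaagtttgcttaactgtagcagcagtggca
A match is a description of letters and a window without one says only that these letters were not in those bases. The 4 matches in the Sox6 window began 236, 225, 130 and 90 bases before the start site.

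To locate the 10 genes in the tissue, each spot was scored for 13 marker lists that hold none of them. A spot passed for a list when the list took at least 4 times its reference share of the spot's UMIs, with at least 10 UMIs, and went to the list with the highest ratio. The reference is the median over the 4 areas of the share the list takes. The cartilage list held 9 genes (Col2a1, Acan, Col9a1, Col9a2, Col9a3, Col11a2, Hapln1, Snorc and Cytl1), and 52, 139, 32 and 138 spots passed for it in E14.5 replicate 1, E14.5 replicates 2, 3 and 4, E15.5 replicate 1 and E15.5 replicates 2, 3 and 4. In that order of areas, which is kept from here on, 59, 131, 61 and 269 spots passed for the bone list (Ibsp, Sp7, Ifitm5, Alpl, Phex and Dmp1). For the cortical neuron list (Neurod6, Neurod2, Tbr1, Bcl11b and Fezf2) they were 78, 118, 117 and 26 spots, and for the radial glia list (Fabp7, Hes5, Ttyh1, Slc1a3 and Ptprz1) 38, 35, 30 and 31. The groups are named by their lists, and spots just under and just over the cartilage cut were common: 97 spots lay between 3.2 and 4 times the reference and 54 between 4 and 5 times.

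**Figure D1:**
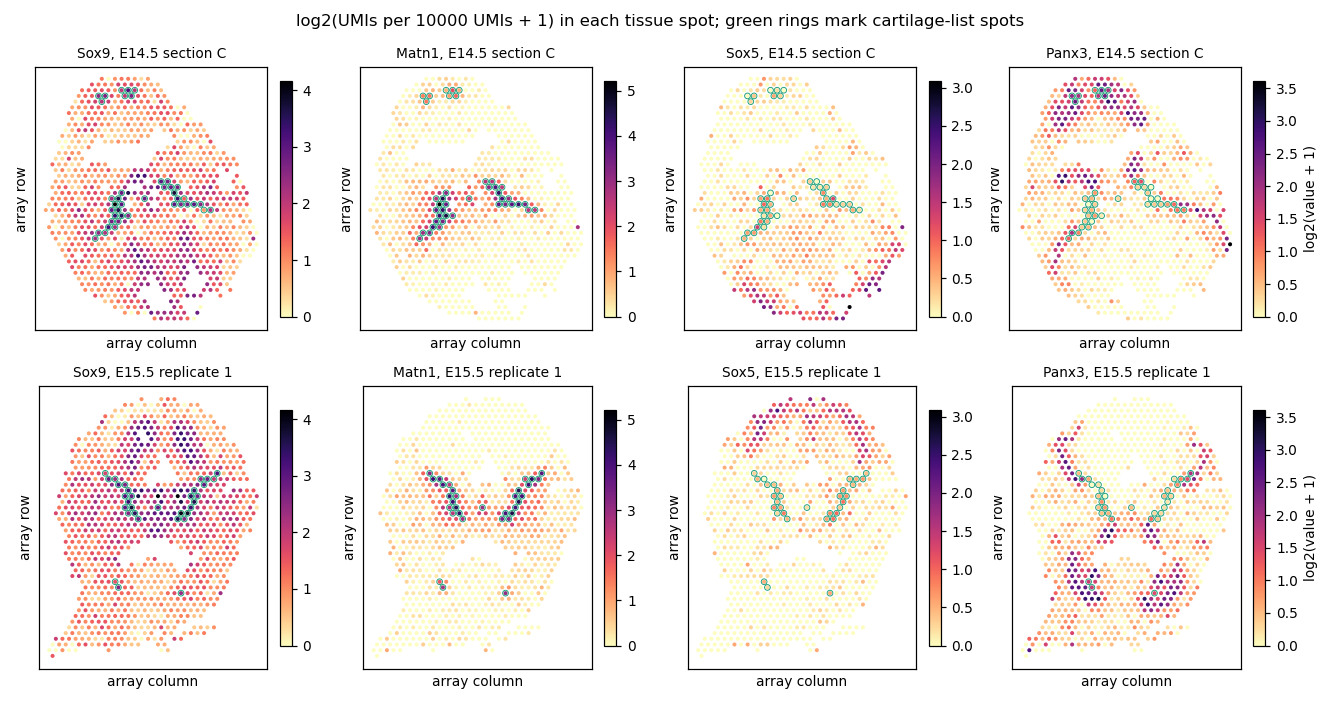
Maps of Sox9, Matn1, Sox5 and Panx3 in the tissue spots of a deep section of each stage, E14.5 section C (upper row) and the E15.5 replicate 1 section (lower row), by position on the array. Colour is log2(UMIs per 10000 UMIs + 1), on 1 scale per gene, and green rings mark cartilage-list spots, which take in most of the dark Matn1 spots, while Sox5 was also dark along an outer rim of the head and Panx3 in patches beside and away from the rings.

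Across the whole head, 9 of the 10 genes were higher in cartilage-list spots than in all other tissue of the same areas. Matn1, Cnmd, Matn3, Comp and Matn4 differed most, by log2 fold changes from 3.70 to 4.89, Sox9, Sox5 and Sox6 were higher by 1.41 to 2.05, Panx3 by 0.34, and Matn2 did not differ beyond the error. UMIs were summed per area and tested by quasi-likelihood in edgeR, with the area as a block and a call at a Benjamini-Hochberg adjusted p under 0.1. It called 24.9% of all 13716 genes in either direction and 11.6% as higher, against which the 9 of 10 is to be read, and the median log2 fold change was 2.87 over the 10 genes and -0.03 over all genes. The count over all genes was 3411 and fell to 1067 without the E14.5 area of replicates 2, 3 and 4 and to 1236 without the E15.5 area of replicates 2, 3 and 4. The labels number the sections as replicates and the study calls them biological replicates, but they do not say which embryo a section came from. With the area as a block, the p-values measure how the difference between the kinds of spot varied over capture areas. These areas hold unequal numbers of sections and may also differ for technical reasons.

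Matn1 (chromosome 4, 130944385 to 130955475, plus strand, GRCm38), the cartilage matrix protein, showed the largest difference of the 10. Its level in cartilage-list spots was 1615, 928, 1297 and 1273 CPM, and 58.8, 32.6, 34.0 and 54.3 CPM in other tissue. The groups did not overlap in any area, and the log2 fold change was 4.89 ± 0.14 (SE, adjusted p = 8.78e-07). Between 46.0% and 66.4% of all Matn1 UMIs of an area lay in cartilage-list spots, which held 3.01% to 7.78% of all UMIs.

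Matn3 (chromosome 12, 8947929 to 8972028, plus strand), a matrilin of growth cartilage, was at 376, 266, 275 and 362 CPM in cartilage-list spots and 14.8, 13.7, 10.8 and 18.2 CPM elsewhere. Matn4 (chromosome 2, 164389393 to 164405160, minus strand), a matrilin with a broader known distribution, was at 744, 616, 651 and 753 CPM against 48.4, 53.2, 46.1 and 72.3 CPM. Both were separated in every area, with log2 fold changes of 4.50 ± 0.11 (adjusted p = 5.81e-07) and 3.70 ± 0.12 (adjusted p = 1.44e-06) by the same test.

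Cnmd (chromosome 14, 79637690 to 79662170, minus strand) was at 908, 638, 589 and 881 CPM in cartilage-list spots and 36.1, 31.9, 22.9 and 44.5 CPM in other tissue, a log2 fold change of 4.52 ± 0.12 (edgeR adjusted p = 5.81e-07). Comp (chromosome 8, 70373558 to 70382066, plus strand) was at 303, 367, 388 and 534 CPM against 17.2, 23.3, 14.96 and 30.2 CPM, a log2 fold change of 4.28 ± 0.14 (adjusted p = 1.44e-06). Neither gene overlapped between the groups. Of the 9 calls only that of Panx3 was lost when an area was left out, when sections were taken as blocks or at another cut.

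Matn2 (chromosome 15, 34306677 to 34436273, plus strand), a matrilin found in many connective tissues, stood apart from the other 3. It was at 47.3, 91.0, 77.4 and 94.3 CPM in cartilage-list spots and 49.7, 94.2, 79.6 and 109 CPM elsewhere. The log2 fold change was -0.07 ± 0.08 (adjusted p = 0.61, edgeR), with a 95% interval from -0.26 to 0.12, which did not reach the size of the differences of the other matrilins.

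Among the transcription factors, Sox9 (chromosome 11, 112782224 to 112787760, plus strand) was at 619.5, 719, 791 and 619 CPM in cartilage-list spots and at 190.3, 188, 198 and 119 CPM elsewhere. Sox5 (chromosome 6, 143828425 to 144781977, minus strand) was at 71.0, 35.2, 48.4 and 79.4 CPM against 32.2, 18.4, 21.6 and 14.04 CPM. Sox6 (chromosome 7, 115470872 to 116038796, minus strand) was at 86.0, 40.3, 71.8 and 84.8 CPM against 28.4, 18.2, 30.3 and 28.0 CPM. All 3 were higher in the cartilage-list spots of every area, by log2 fold changes of 2.05 ± 0.11 for Sox9 (adjusted p = 3.17e-05), 1.41 ± 0.11 for Sox6 (adjusted p = 0.000165) and 1.55 ± 0.26 for Sox5 (adjusted p = 0.00651, edgeR). The counts behind Sox5 and Sox6 in the E14.5 replicate 1 area were 33 and 40 UMIs.

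Panx3 (chromosome 9, 37659902 to 37669235, minus strand) was at 62.4, 84.1, 74.8 and 159 CPM in cartilage-list spots and 48.8, 68.3, 63.8 and 125 CPM in other tissue. It was higher in each area, by a small log2 fold change of 0.34 ± 0.08 (adjusted p = 0.022, edgeR). The call was lost without the E14.5 area of replicates 2, 3 and 4 (adjusted p = 0.20) or the E15.5 area of replicates 2, 3 and 4 (0.16), with sections as blocks (0.29) and at a cut of 2 times (0.11). Among single sections, the ratio of cartilage-list spots to other tissue ran from 0.69 in E14.5 section B and E15.5 section C to 2.01 in E15.5 section A.

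**Figure D2:**
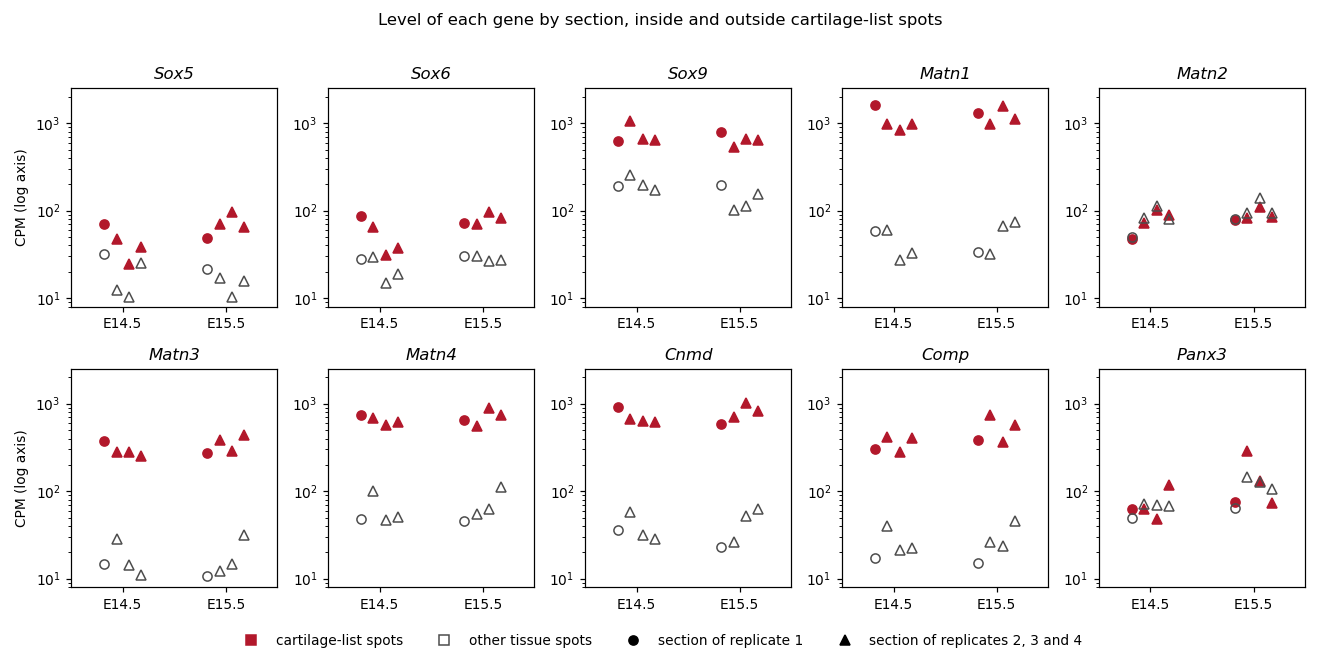
Level of each gene (CPM, log axis) in the cartilage-list spots (filled, red) and the other tissue spots (open, grey) of each of the 8 sections, by stage; circles are the sections of replicate 1 and triangles those of replicates 2, 3 and 4. Over all sections the ranges of the kinds of spot were apart for Matn1, Matn3, Matn4, Cnmd, Comp and Sox9. For Sox6 they were narrowly apart (lowest 31.0 CPM in cartilage-list spots, highest 30.3 CPM in other tissue). They overlapped for Sox5, Matn2 and Panx3, though within each section Sox5 was higher in cartilage-list spots.

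The 10 genes did not share one order of levels over the tissues. Of the 13 spot groups compared (12 lists with at least 10 spots in at least 3 areas, and the spots that passed for no list), the cartilage list had the highest mean for 7 genes. How many of all genes were highest there, or set apart from the next group, was not counted, so these orders are descriptions. Matn1 (1279 ± 281 CPM, SD, n = 4 areas), Matn3 (320 ± 57.5), Matn4 (691 ± 68.2), Cnmd (754 ± 164) and Comp (398 ± 97.5) were highest there with no overlap with the next group. For Matn1, Matn4 and Cnmd, the next was the olfactory neuron list, at 171 ± 55.3, 201 ± 68.8 and 142 ± 48.7 CPM (n = 3 areas). For Matn3 and Comp it was the ciliated epithelium list, at 71.9 ± 22.5 and 76.1 ± 14.3 CPM (n = 3), and these neighbours overlapped each other for all 5 genes. The cartilage-list genes themselves were at 7401 CPM in olfactory-list and 7455 CPM in ciliated-list spots against 2261 CPM in spots of no list and 37454 CPM in cartilage-list spots, and the part of such mixed spots in these levels was not tested.

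Sox9 had several high groups. In range over areas, its level in cartilage-list spots (687 ± 83.6 CPM, n = 4) overlapped that in radial-glia-list spots (526 ± 102 CPM, n = 4). The latter overlapped those of the ciliated epithelium list (420 ± 84.8, n = 3) and the olfactory neuron list (401 ± 108, n = 3). The olfactory group did not overlap the fifth, the GABAergic neuron list (226 ± 44.5 CPM). In radial-glia-list spots of the 4 areas, Sox9 was at 510.5, 479, 673 and 441 CPM. Within each area this was below the cartilage-list spots, at 619.5, 719, 791 and 619 CPM. The log2 fold change of radial-glia-list spots against all other tissue was 1.59 ± 0.13 (edgeR adjusted p = 0.000112). This comparison was added after the levels had been seen and called 66.4% of all 13220 genes, 3758 as higher and 5019 as lower. In the same spots the cartilage-list genes were at 381 to 837 CPM, on average the lowest group but the cortical neuron list, and 7 of the 10 genes were lower than in other tissue, while Sox5 (log2 fold change 0.10 ± 0.31, adjusted p = 0.79) and Sox6 (0.22 ± 0.17, adjusted p = 0.29) were not called.

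Sox5 was highest in the cortical-neuron-list spots. There its level was 86.5, 124, 111 and 241 CPM, above the 35.2 to 79.4 CPM of the cartilage-list spots without overlap, and the next group (radial glia list, 24.1 ± 7.92 CPM) lay below both. Against all other tissue the log2 fold change was 3.25 ± 0.23 (edgeR adjusted p = 6.11e-05), in a comparison, also added after the levels had been seen, that called 70% of all 13451 genes. In the same spots 8 of the 10 genes were called as lower, as were 5134 of the 13451 genes, and Sox6 was not called (log2 fold change -0.39 ± 0.19, adjusted p = 0.11). It was called as lower without the E14.5 area of replicates 2, 3 and 4 (adjusted p = 0.013) and at a cut of 2 times (0.087).

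The share of Sox5 UMIs in each group of spots differed between areas, as did the share of all UMIs. Cortical-neuron-list spots held 55.1%, 31.3%, 58.5% and 7.27% of the Sox5 UMIs of the 4 areas, with 21.3%, 4.88%, 11.9% and 0.58% of all UMIs. Cartilage-list spots held 6.41%, 10.2%, 7.40% and 32.3% of the Sox5 UMIs. The E15.5 area of replicates 2, 3 and 4, with the fewest cortical-list UMIs, was the one in which most Sox5 lay in cartilage-list spots.

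Sox6 was the most evenly spread of the 3 factors. Its mean was 70.7 ± 21.3 CPM in cartilage-list and 48.6 ± 17.3 CPM in bone-list spots (n = 4 each). All neighbouring groups in its order overlapped in their ranges over areas. In bone-list spots of the 4 areas it was at 65.0, 27.0, 59.7 and 42.6 CPM. Within each area this was below the cartilage-list spots, at 86.0, 40.3, 71.8 and 84.8 CPM. Sox6 was higher in bone-list spots than in other tissue by a log2 fold change of 0.91 ± 0.13 (edgeR adjusted p = 0.000877). Sox5 and Sox9 were lower in the same spots, by log2 fold changes of -1.19 ± 0.17 (adjusted p = 0.000882) and -0.57 ± 0.08 (adjusted p = 0.00103). The other tissue here includes the spot groups in which Sox5 and Sox9 were highest. Against spots of no list, the levels in bone-list spots overlapped over areas for all 3 factors. They were 10.6 ± 5.74 and 16.1 ± 4.69 CPM for Sox5, and 121 ± 22.7 and 154 ± 29.1 CPM for Sox9 (bone list first, SD, n = 4 areas). For Sox6 they were 48.6 ± 17.3 and 26.8 ± 6.62 CPM. The bone-list comparison was added after the levels had been seen and called 53.6% of all 13952 genes.

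Panx3 was highest in the bone-list spots. Its level there was 554, 373, 446 and 462 CPM, and no other group overlapped that range, with the cartilage list next at 94.98 ± 43.3 CPM (n = 4). The log2 fold change against other tissue was 3.56 ± 0.21 (edgeR adjusted p = 2.53e-05), and bone-list spots held 42.6%, 42.0%, 44.1% and 56.6% of all Panx3 UMIs. Of the other genes, Matn2 was higher in bone-list spots (0.31 ± 0.09, adjusted p = 0.024), Matn1, Matn3, Matn4 and Cnmd were lower by log2 fold changes between -0.32 and -1.10, and Comp was not called (-0.02 ± 0.16, adjusted p = 0.94). The other tissue in this comparison includes the cartilage-list spots. Against spots of no list, the levels in bone-list spots overlapped over areas for Matn1 (55.5 ± 34.8 and 55.5 ± 20.4 CPM), Matn3 (20.3 ± 2.86 and 15.1 ± 2.76), Matn4 (63.4 ± 10.4 and 64.8 ± 12.6) and Cnmd (41.9 ± 17.4 and 38.9 ± 11.7, SD, n = 4 areas). The calls of Matn2, Matn3 and Matn4 were each lost without at least 1 area: Matn2 (adjusted p = 0.17) and Matn3 (0.14) without the E14.5 area of replicates 2, 3 and 4, and Matn3 (0.30) and Matn4 (0.19) without the E15.5 area of replicates 2, 3 and 4.

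Matn2 had its highest mean in the spots of the oral mesenchyme list (Osr2, Pax9, Msx1, Barx1 and Shox2), at 172, 217, 145 and 186 CPM in the 4 areas. The epidermis list (124 ± 24.2 CPM) and the tendon list (122 ± 27.7 CPM) followed, and each of these neighbours overlapped the next. The cartilage list came eighth of 13 for Matn2. The low end was clear, since the GABAergic neuron, radial glia and cortical neuron lists lay between 11.01 and 13.7 CPM and did not overlap the retina list above them (42.2 ± 15.5 CPM).

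**Figure D3:**
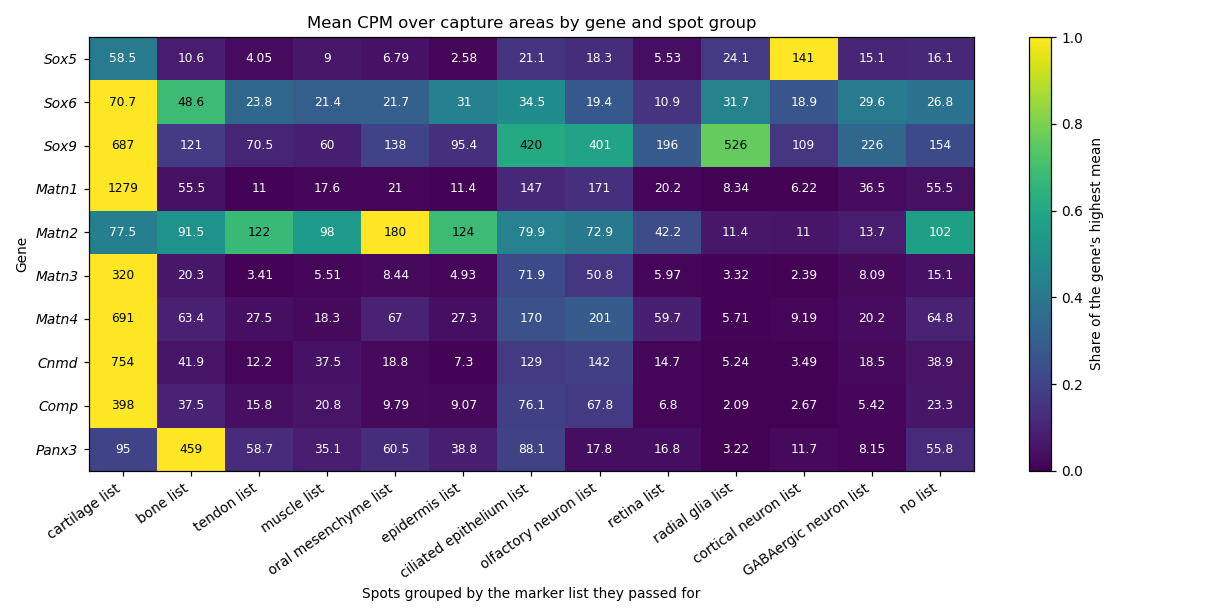
Mean CPM over capture areas of each gene (rows) in the spots of each marker list and in spots of no list (columns). Numbers are the means, and colour is the share of the gene's own highest mean. In 7 of the genes the highest mean is in the cartilage list, and the others peak elsewhere: Sox5 in the cortical neuron list (141), Matn2 in the oral mesenchyme list (180) and Panx3 in the bone list (459).

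**Figure D4:**
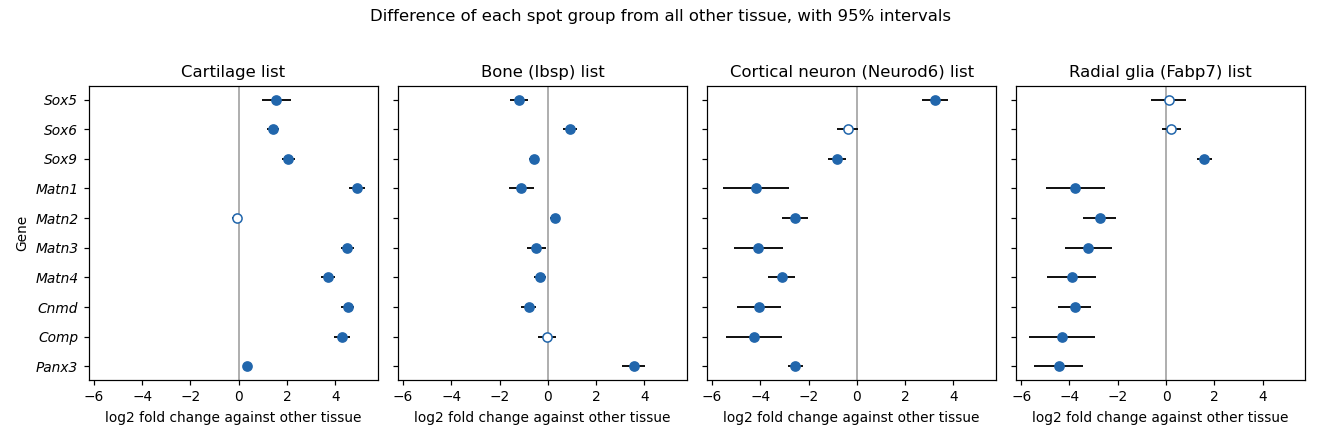
log2 fold change of each gene in the spots of 4 marker lists against all other tissue, with 95% intervals from edgeR's quasi-likelihood fit over areas; filled points were called at an adjusted p under 0.1. Matn1, Matn3, Matn4, Cnmd and Comp lie right of 0 in the cartilage panel and left of 0 in both brain panels, Sox5 is right of 0 in the cartilage and cortical neuron panels, and Panx3 is farthest right in the bone panel.

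The fall of each gene with distance from the cartilage-list spots was then followed over rings of neighbouring spots on the array, as a description. Matn1 went from 1253 ± 296 CPM in edge spots of the cartilage-list groups to 216 ± 51.5 in the first ring outside, 78.9 ± 31.3 in the second, 40.2 ± 7.82 in the third and 18.1 ± 8.15 farther away (SD, n = 4 areas). Cnmd, Matn3, Matn4 and Comp fell at each step too, and Sox9 fell from 678 ± 90.6 at the edge to 262 ± 65.1 in the first ring and 157 ± 44.8 far away. The cartilage-list genes, which defined the spots, fell at each ring as well, from 34672 to 39546 CPM at the edge over 7437 to 10002 CPM in the first ring to 999 to 1439 CPM far away. Panx3 took another course, with 97.7 ± 47.7 CPM at the edge, 131 ± 39.6, 149 ± 39.6 and 112 ± 45.3 in rings 1, 2 and 3 and 53.0 ± 28.4 beyond. The ranges of the areas overlapped between the edge and all 3 rings. Within each area the edge (63.3, 84.6, 74.8 and 168 CPM) lay below ring 1 (102, 118, 115 and 189) and ring 2 (126, 108, 165 and 197). Ring 3 was below the edge in the E14.5 area of replicates 2, 3 and 4 (74.2 CPM).

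**Figure D5:**
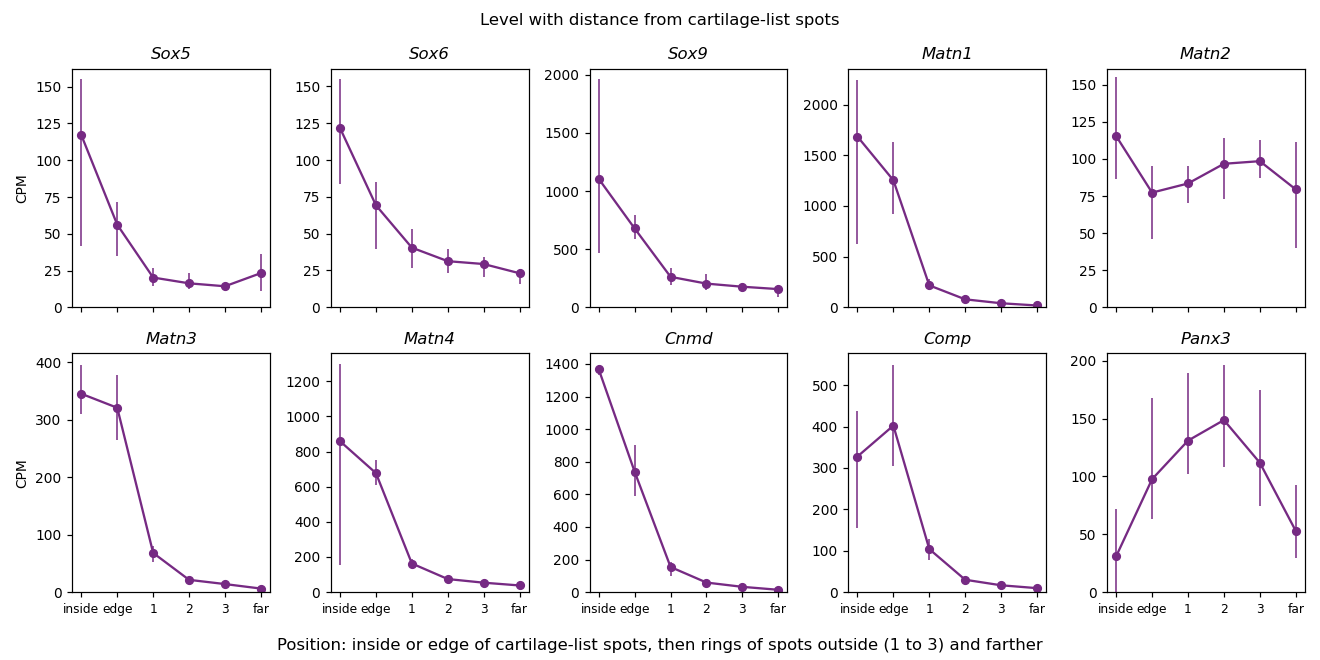
Mean CPM of each gene inside and at the edge of the cartilage-list spots, in the first 3 rings of spots outside (1 to 3) and farther away (far); lines through points span the lowest to the highest area. The matrix genes drop at the first ring, Matn2 stays between 77.3 and 115 CPM, and Panx3 is highest, at 149 CPM, in the second ring.

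Only 22 cartilage-list spots (2, 9, 0 and 11 in the 4 areas) had all 6 neighbours within the group, and these interior spots were compared with the edge spots of the same areas. The interior spots held 6447, 47969 and 679813 UMIs of all genes in the 3 areas that had any. Their median per spot was 3223.5, 4157 and 62013 UMIs, against 5294, 42221 and 50541 at the edge of the same areas. The cartilage-list genes, which defined the spots, were at 45913, 62415 and 54074 CPM inside and 35670, 34672 and 39546 CPM at the edge. The block was the area, so the sections of a shared area were not held apart. In the E14.5 area of replicates 2, 3 and 4, section A was the shallow one, with a median of 10037.5 UMIs per spot. It also had the highest Sox9 level in cartilage-list spots (1051 CPM). Which section the interior spots came from was not checked. The part of depth, list genes or section in the differences was not tested. Sox5 was higher inside by a log2 fold change of 1.03 ± 0.32 (edgeR adjusted p = 0.088) at 1, 2 and 105 UMIs in the 3 areas with interior spots, and none of the other 9 genes was called, with Panx3 at -1.27 ± 0.41 (adjusted p = 0.11). This comparison called 1.53% of 8886 genes, 136 in all, but 293 without the E14.5 replicate 1 area, 20 without the E14.5 area of replicates 2, 3 and 4, and 0 without the E15.5 area of replicates 2, 3 and 4, where 49 genes had an unadjusted p under 0.05. The call of Sox5 was lost without either of the latter (adjusted p = 1.0 in both). Without the E14.5 replicate 1 area Sox9, Matn1, Matn4 and Cnmd were also called as higher inside, by log2 fold changes between 0.81 and 1.03, and Panx3 as lower (-1.23, adjusted p = 0.0034).

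The stages were compared to ask whether these genes change between E14.5 and E15.5, over the time of palate fusion. With the capture areas as samples, no gene was called at either scale. Over whole tissue, edgeR called 0% of 15609 genes (930 had an unadjusted p under 0.05, DESeq2 called 37, and 78 were called without the E15.5 replicate 1 area). In cartilage-list spots it called 0% of 12646 genes (76 had an unadjusted p under 0.05 and DESeq2 called 1), with 12 called without the E15.5 replicate 1 area and 16 without the E15.5 area of replicates 2, 3 and 4.

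Over whole tissue, Panx3 had the largest difference of the 10, at 49.2 and 69.2 CPM in the E14.5 areas and 64.2 and 127 CPM in the E15.5 areas. The ranges overlapped, and the log2 fold change (E15.5 over E14.5) was 0.62 ± 0.36 (edgeR adjusted p = 0.77), with a 95% interval from -0.21 to 1.44. Comp was at 25.8 and 42.6 against 27.8 and 69.4 CPM (log2 fold change 0.42 ± 0.45), and Sox5 at 33.4 and 19.4 against 22.5 and 19.1 CPM (-0.39 ± 0.32), both with overlapping ranges. The other 7 lay between -0.23 (Sox9) and 0.32 (Sox6), and every adjusted p of the 10 was 0.77 or higher.

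The direction depended on which areas were set against each other for 5 of the 10 genes. How many of all genes did so was not counted, so the 5 are not read as a result about these genes. Cnmd was at 62.3 CPM at E14.5 and 42.4 at E15.5 between the replicate 1 areas, and at 66.0 and 109.6 CPM between the areas of replicates 2, 3 and 4. Matn1 was at 106 and 77.4 CPM in the first pair of areas and was at 82.98 and 149 CPM in the second. Matn3 and Matn4 also differed downward in the first pair and upward in the second, and Sox9 the other way about (203 and 218 CPM, then 218 and 158 CPM). The 2 kinds of area also differed in the software version that made the counts, and the share of cartilage-list spots was 4.70% and 3.24% in the first pair and 6.02% and 7.07% in the second. The part of either in the levels was not tested, and with areas as samples each kind had 1 per stage. Taking the 3 sections of each area of replicates 2, 3 and 4 as samples, in a comparison added after the data had been seen, edgeR called 3885 of 14761 genes, Panx3 as higher (0.82 ± 0.16, adjusted p = 0.034) and Sox9 as lower (-0.68 ± 0.22, adjusted p = 0.082) at E15.5. In the cartilage-list spots of the same sections 2243 of 11620 genes were called, with Sox5 (1.10 ± 0.24, adjusted p = 0.036), Sox6 (0.95 ± 0.24, adjusted p = 0.048) and Matn3 (0.44 ± 0.14, adjusted p = 0.084) higher at E15.5. The sections of a stage shared a library there, so stage and capture area cannot be told apart in these calls.

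Within cartilage-list spots, with areas as samples, 4 matrix genes had log2 fold changes near 0. Matn1 had a log2 fold change of 0.00 ± 0.32 (95% interval -0.72 to 0.72), Matn3 of -0.02 ± 0.31 (-0.71 to 0.68), Matn4 of 0.03 ± 0.29 (-0.61 to 0.67) and Cnmd of -0.09 ± 0.32 (-0.81 to 0.64), so log2 changes beyond 0.81 in either direction were outside all 4 intervals. Comp (0.43 ± 0.31), Panx3 (0.62 ± 0.39), Sox5 (0.37 ± 0.41) and Sox6 (0.40 ± 0.38) had intervals with upper ends from 1.11 to 1.49. Every adjusted p was 1.0 (edgeR). Whether the difference between cartilage-list spots and other tissue changed between the stages was tested as an interaction, which called 0% of 14108 genes (942 had an unadjusted p under 0.05, and DESeq2 called 0). The largest interaction among the 10 genes was that of Sox5, at 0.91 ± 0.38 (unadjusted p = 0.040, adjusted p = 0.74).

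Other genes of the cartilage pathway were taken from lists not picked for how they moved in this comparison, though earlier results of these data were known. Of the 16 cartilage collagens and proteoglycans, 16 were higher in cartilage-list spots, led by Acan (4.60 ± 0.13), Cytl1 (4.59 ± 0.10), Snorc (4.57 ± 0.20), Col9a1 (4.40 ± 0.17), Hapln1 (4.36 ± 0.09) and Col9a3 (4.29 ± 0.12) on the log2 scale. Those 6 and 3 more defined the spots, so they had to differ. The 7 that did not were also called as higher, as were 11.6% of all genes, between 1.84 ± 0.16 for Col11a1 and 3.91 ± 0.12 for Scrg1.

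Of 12 chondrocyte regulators and growth plate signals, 11 were tested, 7 were higher in cartilage-list spots, 1 was lower and 3 were not called (median log2 fold change 0.65, against -0.03 over all genes, of which 24.9% were called and 11.6% were higher). The transcription factor Nkx3-2 was higher by 3.27 ± 0.18, the receptor Fgfr3 by 2.23 ± 0.14, the joint ligand Gdf5 by 1.98 ± 0.32 and the forkhead factor Foxc1 by 1.83 ± 0.09. The growth plate ligands Ihh and Pthlh were higher by 1.16 ± 0.25 and 0.65 ± 0.12. Mef2c, a factor of chondrocyte hypertrophy and of muscle and neurons, was the one that was lower (-0.60 ± 0.10, edgeR adjusted p = 0.00653).

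Of 7 relatives of the members, 3 were higher, 1 was lower and 3 were not called (median 0.21), beside the same 24.9% and median of -0.03 over all genes. Thbs1 (1.77 ± 0.10), Thbs2 (0.91 ± 0.12) and Thbs3 (0.46 ± 0.09), which are thrombospondins like Comp, were higher in cartilage-list spots, and Thbs4 was lower (-1.80 ± 0.27, edgeR adjusted p = 0.00419). Thbs4 belongs to the tendon list, whose spots were kept out of the cartilage group. Tnmd, the tendon relative of Cnmd, is on that list as well and was at -0.64 ± 0.29 (adjusted p = 0.17), and Panx1 and Panx2 were at -0.24 ± 0.14 and 0.21 ± 0.20. Between stages, with areas as samples, none of the genes of the 3 lists was called over whole tissue, in cartilage-list spots or in the interaction.

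The genes whose pattern over spots was most like that of each member were found by Pearson's r on log2(UMIs per 10000 UMIs + 1) over all spots of an area, averaged over the 4 areas, among 11771 genes with a UMI in at least 5% of the spots of every area. Spots of a library share its depth and its neighbours, so r is a description. Acan, Col9a3 and Hapln1 were the 3 nearest for Matn1 (mean r 0.73, 0.73 and 0.73), Matn3 (0.66, 0.65 and 0.68), Cnmd (0.72, 0.73 and 0.71) and Comp (0.68, 0.67 and 0.69). Matn4 was nearest to the type IX collagen genes Col9a3, Col9a2 and Col9a1 (0.64, 0.63 and 0.62), and Matn2 to Ahnak, Col5a1 and Col3a1 (0.53, 0.53 and 0.52). Panx3 was nearest to the bone matrix gene Ibsp (0.74) and to Alpl and Phospho1 (0.71 each), both of which act in mineralization.

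Sox5 shared none of its 3 nearest genes with Sox6 or Sox9, which had Hapln1 in common. Sox9 was nearest to Wwp2 (0.51), a ubiquitin ligase gene, and to Col9a3 (0.48) and Hapln1 (0.46). Sox5 was nearest to the cortical neuron genes Neurod6 (0.47), Neurod2 (0.47) and Fezf2 (0.44). For Sox6 the highest mean r was only 0.26, for Col11a2, followed by Hapln1 (0.26) and Snorc (0.25). Among themselves the 3 factors had a mean r of 0.08 for Sox5 and Sox6, 0.10 for Sox5 and Sox9 and 0.14 for Sox6 and Sox9. Over the areas these ran from -0.06 to 0.17, from -0.07 to 0.35 and from 0.06 to 0.22. A UMI of Sox5 was found in 19.3% to 46.9% of the spots of an area, and one of Sox6 in 25.9% to 80.5%. The part of such sparse counts in r was not tested, so r is not ranked between pairs. Matn1 and Cnmd had a mean r of 0.74, which was lowest in the shallow E14.5 replicate 1 area (0.44 against 0.76, 0.87 and 0.89 in the others).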

How the data were processed

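Gene expression was measured in 4 Visium capture areas, 2 per stage, grouped by the stage in the labels. The deposited values are raw UMI counts per gene and spot, which the authors made with Space Ranger 1.3.1 (replicate 1 areas) and 2.0.0 (the others) per the file headers, without normalization, and the submitters' processing notes name mm10. The probe set is not given in the sources used here. Of the barcodes in the files, 19 lay off tissue and were left out, 12 tissue spots had no counts, and no other filter or doublet caller was applied to spots. Sections were separated as connected groups of at least 100 spots, which left 88 spots in no section.

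The 10 genes and all lists were chosen with earlier results of these data known. Counts were summed per area, or per area and spot group, and tested in edgeR 4.0.16 (R 4.3.3) by quasi-likelihood, after its default low-count filter and TMM scaling, with Benjamini-Hochberg adjustment over all genes and a call under 0.1, and the script was tested on simulated data. Errors of fold changes are the coefficient divided by the root of its F. Alternatives were DESeq2 1.42.0 and its size factors, no filter, at least 10 counts in every sample, a call under 0.05, sections as samples or blocks (and, added later, those of the shared areas alone), thinned counts, the replicate number as a block, cuts of 2 and 8 times, Spearman correlation, and each area left out. The list comparisons for bone, cortical neurons and radial glia were added after the data had been seen. Named were all 10 genes, the 3 genes nearest to each by r, and of each pathway list at most 6 called genes by size of change, while genes outside that rule (Mef2c, Col11a1, Scrg1 and the relatives not called) were named after their values were seen. Positions are from GENCODE M21 (GRCm38). Plots were drawn with matplotlib 3.10.9 in Python 3.11.15. CPM intervals cover counting error only.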

Additional observations from a re-analysis of the deposited data

Results flagged for a closer look

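Of 40 groups of 4 sections (10 genes, 2 stages, over all tissue and in cartilage-list spots), 7 held a section whose gap to its nearest neighbour was a larger part of the range than Dixon's 95% critical value for 4 samples allows, which chance passes in about 1 group of 20. All 7 were at E14.5, and 5 were in section A. Over all tissue, section A was highest for Sox9 (347 CPM against 197 to 218), Matn3 (58.4 against 23.7 to 26.8), Matn4 (169 against 69.4 to 81.5) and Cnmd (129 against 59.7 to 62.3). That section had 10.8% of its spots in the cartilage list, against 3.63% to 4.71% in the other E14.5 sections, and a median of 10037.5 UMIs per spot. The part of either in the levels was not tested. In cartilage-list spots alone section A was highest for Sox9 (1051 CPM against 619.5 to 656). Replicate 1 was lowest for Panx3 over all tissue (49.3 CPM against 68.7 to 70.5) and highest for Cnmd in cartilage-list spots (908 CPM against 624 to 672).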

How the results depend on the processing

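For the comparison of cartilage-list spots with other tissue, 114 of 120 values of single genes under an alternative kept their direction and their side of the threshold or moved by less than their SE. Its count of called genes, 3411, fell to 2234 at an adjusted p under 0.05 and ran from 1067 to 4495 with an area left out. The whole-tissue count between stages, 0, became 37 with DESeq2 and 0 to 78 with an area left out. The count between stages in cartilage-list spots, 0, became 1 with DESeq2, 18 without a filter, 2 with sections as samples and 0 to 16 with an area left out. With the sections of the shared areas alone as samples, where stage and area coincide, these counts became 3885 and 2243, and Matn3 in cartilage-list spots turned from -0.02 to 0.44. The interaction called 1 gene at a cut of 8 times. The count of genes that differed between interior and edge spots, 136, became 635 at a cut of 2 times and 0 to 293 with an area left out, could not be fitted at a cut of 8 times, and Matn3 turned from -0.04 to 0.81 (adjusted p = 1.4e-06) at a cut of 2 times, which adds spots to the interior. Of the 30 nearest genes, 12 were shared under Spearman correlation. The mean level in a gene's highest group moved by over 1 SD in 10 of 29 cases, all at other cuts, where it was lower at 2 times and higher at 8 times. Same-numbered areas of the stages had deviations with a correlation of 0.25 over whole tissue and -0.12 in cartilage-list spots, and with 2 pairs and no shared animal or day in the labels the number was not taken to pair them. With the replicate block 0 genes were called over whole tissue and 2 in cartilage-list spots. With the crossed pairing, added after seeing the data, 9 were called in cartilage-list spots. Precision is limited by 2 areas per stage and by the E14.5 replicate 1 area, whose cartilage-list spots held 464875 UMIs. The cause of these shifts was not tested.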

Other observations

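The matrix genes were not at 0 in brain spots of the shallow area. In cortical-neuron-list spots Matn1 had 69 UMIs (21.0 CPM) in the E14.5 replicate 1 area, 18 (3.38 CPM) in the E14.5 area of replicates 2, 3 and 4, and 4 (0.50 CPM) in the E15.5 replicate 1 area. In the E15.5 area of replicates 2, 3 and 4 it had 0 among 514499 UMIs, which allows up to 7.17 CPM (exact 95% Poisson interval, counting error only). In radial-glia-list spots it was at 22.8, 6.26, 0 and 4.27 CPM in the same order. Comp, Cnmd and Matn3 were likewise highest in the E14.5 replicate 1 area in both groups of spots, at 5.48, 8.52 and 4.57 CPM in cortical-neuron-list spots and 6.44, 8.78 and 7.61 CPM in radial-glia-list spots.

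The E15.5 area of replicates 2, 3 and 4 was highest in Panx3 over whole tissue (127 CPM against 49.2 to 69.2), and it also had the most bone-list spots (13.8% against 5.33% to 6.17%). Within bone-list spots its Panx3 level (462 CPM) lay inside the range of the other areas (373 to 554 CPM). In cartilage-list spots it was above the other areas (159 CPM against 62.4 to 84.1). The same held for spots beyond the third ring around them (92.6 CPM against 29.7 to 54.2). The part of bone-list spots in the whole-tissue level was not tested.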
